A study of Mus musculus with 24 samples.

Results

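Mesothelial cells form the thin epithelial sheet that covers visceral organs and fat pads inside the body cavities. The genes described here are 10 that mark these cells, namely Msln, Upk3b, Upk1b, Muc16, Wt1, Bnc1, Lrrn4, Gpm6a, Cdh3 and Krt19, out of 35275 genes in the expression table of a study of FoxO1 in mouse white fat. They were taken by gene symbol, and each symbol matched 1 row. The study compared mice with a conditional FoxO1 knockout in adipose tissue with control mice that carried the floxed FoxO1 gene, to find genes and pathways that FoxO1 regulates. RNA was sequenced from gonadal fat of knockout mice, gonadal fat of control mice, inguinal fat of knockout mice and inguinal fat of control mice. These 4 groups hold 6 libraries each, and 6 mice can be told apart by the numbers in the library names: knockouts M5, M9 and M12, and controls M6, M7 and M10. Each mouse contributed a gonadal and an inguinal pad, with 2 libraries per pad that were averaged, which left 12 pads and 3 mice per group. The promoter that drives Cre, the deleted part of FoxO1, and the age of the mice were not stated.

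Gonadal fat hangs in the peritoneal cavity and its surface is covered by mesothelium, whereas inguinal fat lies under the skin and has no such cover. Mesothelial cells carry traits of an epithelium, such as keratins, cadherins and apical glycoproteins, together with transcription factors of mesoderm such as Wt1. Mesothelin and Muc16 are surface glycoproteins that bind each other, and the uroplakins Upk1b and Upk3b belong to a family first known from the plaques of the bladder lining.

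The libraries held between 14953657 and 25438811 reads counted in genes. The targeted gene, Foxo1, stood at 4.07, 4.46 and 4.01 FPKM (fragments scaled by gene length and by library total) in the gonadal pads of knockout mice M5, M9 and M12, against 13.6, 7.87 and 9.53 FPKM in control mice M6, M7 and M10. In inguinal pads it stood at 4.12, 2.49 and 5.69 FPKM in knockout mice, against 19.7, 13.0 and 14.5 FPKM in controls. Knockout levels were below all control levels in both depots, at a mean of 40.5% of control in gonadal fat and 26.1% in inguinal fat. Adipocyte genes were high in all pads, with a summed FPKM of 6 genes between 6596 and 25761. The summed FPKM of 16 genes of the epididymis, the organ next to the gonadal pad of male mice, was 0.58, 1.25 and 9174 in the gonadal pads of knockout mice M5, M9 and M12, against 444, 1.45 and 3226 in those of control mice M6, M7 and M10. In M6 a single gene, Crisp1, made up 442 FPKM of the sum and the other 15 genes 1.56 FPKM, whereas those 15 summed to 8493 FPKM in M12 and 2521 FPKM in M10. In inguinal pads the sum of 16 genes did not exceed 2.32 FPKM. Gonadal results are therefore also given without the M12, M6 and M10 pads, whose sums were above 100 FPKM.

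All 10 mesothelial genes were higher in gonadal than in inguinal fat. Their summed level was 234 ± 14.8 FPKM in the gonadal pads of knockout mice and 276 ± 91.8 in those of controls, and 2.43 ± 0.457 FPKM in the inguinal pads of knockout mice and 4.26 ± 0.853 in those of controls (mean ± SD, n = 3 mice each). The ratio of gonadal to inguinal means was highest for Upk3b, at 1966-fold, and lowest for Krt19, at 21.3-fold, with a median of 441-fold when Muc16 is set at its lower bound. In bulk tissue, fewer cells of a type and less RNA per cell cannot be told apart.

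The test was limma on log2(FPKM + 0.5), over 14577 genes with a mean of at least 0.5 FPKM, with the pad as the unit, and a gene was called where its Benjamini-Hochberg adjusted p was below 0.05. Of the 10 genes, 10 passed as higher in gonadal fat, where 44.5% of all genes passed in that direction and 64% passed in either. In 10 of 10 genes, all 6 gonadal pads lay above all 6 inguinal pads, as they did for 29.5% of all genes tested. Of the 10, 7 passed the filter on low values only through gonadal fat and so had to differ between the depots; Lrrn4, Gpm6a and Krt19 had a mean of at least 0.5 FPKM in both. The median difference of the 10 genes was 4.22 on the log2 scale, against 0.23 for all genes tested, and 9.24 with edgeR and 9.13 with DESeq2, which do not use the 0.5 FPKM pseudocount. With FPKM scaling the median of all 14577 genes tested was 0.23, and with edgeR's TMM scaling it was 0.04 over 17434 genes. The 2 fits differ in gene set and model as well as in scaling. Of the genes called in either direction, 69.5% were higher in gonadal fat with FPKM, 53.0% with edgeR and 53.2% with DESeq2. Under each of these scalings 10 of the 10 mesothelial genes were called higher, and 10 of 10 were also called in knockout mice alone, where 37.2% of all genes were called higher, and in control mice alone, where 31.9% were. Without the 3 gonadal pads that held epididymal transcripts, the differences of the 10 genes ran from 2.90 to 7.06, against 2.96 to 6.97 with all pads, and 10 were called.

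Among the surface glycoproteins, Upk3b was the most abundant in gonadal fat. Upk3b (chromosome 5, 136038496 to 136045303, plus strand, mm10), a uroplakin, had 66.3, 66.8 and 56.4 FPKM in the gonadal pads of knockout mice M5, M9 and M12, and 109, 75.9 and 41.4 FPKM in those of control mice M6, M7 and M10. The 12 inguinal libraries held 18 Upk3b reads in all, and no inguinal pad exceeded 0.0892 FPKM. Its gonadal minus inguinal difference was 6.97 on the log2 scale (SE 0.19, limma adjusted p = 5.67e-09), and 10 of 14577 genes ranked above it. Upk1b (chromosome 16, 38773184 to 38800203, minus strand), a tetraspanin of the uroplakin family, had 36.0, 33.0 and 34.9 FPKM in knockout gonadal pads and 40.2, 43.3 and 24.5 FPKM in control gonadal pads. It was nearly undetected in inguinal fat, with 8 reads over the 12 libraries, and differed by 6.09 (SE 0.13, limma adjusted p = 2.08e-09). Other uroplakins were far less abundant than these genes: Upk3a stayed at or under 0.0689 FPKM in every pad and Upk2 at or under 1.75 FPKM. Upk1a passed limma's filter on low values only through gonadal fat. It had 9.88 FPKM in control M10 and 2.26 in knockout M12, the pads with the highest epididymal sums, and 0.567 in control M6. In gonadal pads M5, M9 and M7 it had 0.174, 0.0988 and 0.0902 FPKM, against 0.121 to 0.302 FPKM in inguinal pads. limma did not call Upk1a between the depots (1.03), whereas edgeR (2.98) and DESeq2 (2.99) called it higher in gonadal fat.

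Msln (chromosome 17, 25748614 to 25754327, minus strand) encodes the precursor of mesothelin, a surface protein anchored by a lipid. It had 26.8, 24.5 and 23.5 FPKM in knockout gonadal pads and 30.8, 37.0 and 24.3 FPKM in control gonadal pads, with 22 reads over the 12 inguinal libraries. Its depot difference was 5.68 (SE 0.10), and its adjusted p of 5.43e-10 by limma was the lowest among the 10 genes. Muc16 (chromosome 9, 18495455 to 18512885, minus strand as listed) encodes a very large transmembrane mucin, the CA125 antigen. The listed Muc16 model is 1035 bases long and leaves out most of the gene, whose RefSeq start lies 161718 bases further upstream, so its FPKM describes that stretch only. Muc16 had 3.49, 3.03 and 3.73 FPKM in knockout gonadal pads and 5.27, 3.19 and 2.28 FPKM in control gonadal pads, from 922 reads. No read was counted for Muc16 in any of the 12 inguinal libraries, and with 3 reads over those libraries as the floor its mean level was at least 268-fold higher in gonadal fat. This floor covers counting error only.

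The transcription factor Wt1 (chromosome 2, 105126529 to 105173616, plus strand), a zinc finger protein required for kidney and gonad formation in mouse embryos, had 29.2, 23.0 and 17.5 FPKM in knockout gonadal pads and 30.9, 28.5 and 18.3 FPKM in control gonadal pads. The inguinal libraries held 15 Wt1 reads, and the depot difference was 5.56 (SE 0.15, limma adjusted p = 5.51e-09). Wt1os, a neighbouring transcript on the opposite strand that does not overlap the listed Wt1 model, followed the same depot split at a lower level, with 0.758 to 1.46 FPKM in gonadal pads and at most 0.0162 FPKM in inguinal pads. Bnc1 (chromosome 7, 81966672 to 81992299, minus strand), which encodes the zinc finger protein basonuclin 1 of stratified epithelium and germ cells, had 5.36, 3.38 and 3.03 FPKM in knockout gonadal pads and 4.67, 3.39 and 3.39 FPKM in control gonadal pads. With 5 reads over the 12 inguinal libraries, Bnc1 differed by 3.09 (SE 0.14, limma adjusted p = 1.14e-07), a value that the pseudocount of 0.5 FPKM holds down. The ratio of its mean levels was 847-fold. Its paralog Bnc2 was present in both depots, at up to 3.25 FPKM in gonadal and 3.18 FPKM in inguinal pads, and was not called (difference 0.17, SE 0.10). Bnc1 was the only one of the 10 genes whose listed span overlapped another listed gene, the pseudogene 4833418N17Rik, which did not exceed 0.366 FPKM in any pad.

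Lrrn4, Gpm6a and Krt19 differed from the other 7 genes in that they were also measurable in inguinal fat. The 7 other genes did not exceed 0.1 FPKM in any inguinal pad, and these 3 made up 94.8% of the summed inguinal level of all 10. Lrrn4 (chromosome 2, 132868305 to 132880891, minus strand) encodes a membrane protein with leucine-rich repeats. It had 24.1, 20.4 and 14.8 FPKM in knockout gonadal pads and 27.5, 22.7 and 16.4 FPKM in control gonadal pads. In inguinal pads it had 0.544, 0.517 and 0.501 FPKM in knockout mice and 0.461, 0.697 and 1.05 FPKM in controls, from 507 reads. Its depot difference was 4.24 (SE 0.16, limma adjusted p = 4.94e-08), a 33.4-fold ratio of means.

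Gpm6a (chromosome 8, 54954728 to 55060877, plus strand) encodes a multi-pass membrane glycoprotein of the proteolipid family best known from neurons. It had 20.2, 17.4 and 13.6 FPKM in knockout gonadal pads and 20.8, 19.2 and 12.4 FPKM in control gonadal pads. Inguinal pads held 0.388, 0.335 and 0.580 FPKM in knockout mice and 0.817, 0.385 and 0.697 FPKM in controls, and the depot difference was 4.10 (SE 0.16, limma adjusted p = 5.11e-08). Nerve markers did not share this direction as a group. Of 8 nerve and Schwann cell genes, 7 were tested, of which 5 were lower and 2 higher in gonadal fat, and 3 passed only through inguinal fat. Gpm6b, a paralog of Gpm6a in the proteolipid family, was higher in gonadal fat (0.72, SE 0.12).

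Cdh3 (chromosome 8, 106510913 to 106556908, plus strand), P-cadherin of epithelial junctions, had 12.5, 7.27 and 9.87 FPKM in knockout gonadal pads and 8.68, 10.1 and 9.69 FPKM in control gonadal pads. Inguinal pads held at most 0.0997 FPKM, from 43 reads, and the difference was 4.20 (SE 0.12, limma adjusted p = 7.78e-09). Krt19 (chromosome 11, 100140810 to 100148665, minus strand), a type I keratin of simple epithelia, had 27.0, 29.6 and 45.7 FPKM in knockout gonadal pads and 82.3, 46.4 and 25.6 FPKM in control gonadal pads. Krt19 had the widest spread of the 10 genes among gonadal pads, with a ratio of 3.22 between its highest and lowest pad. In inguinal fat Krt19 had 1.35, 1.03 and 1.51 FPKM in knockout mice and 3.61, 2.24 and 2.32 FPKM in controls. Its depot difference was 4.06 (SE 0.26, limma adjusted p = 8.63e-07), the highest adjusted p of the 10 genes.

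**Figure D1:**
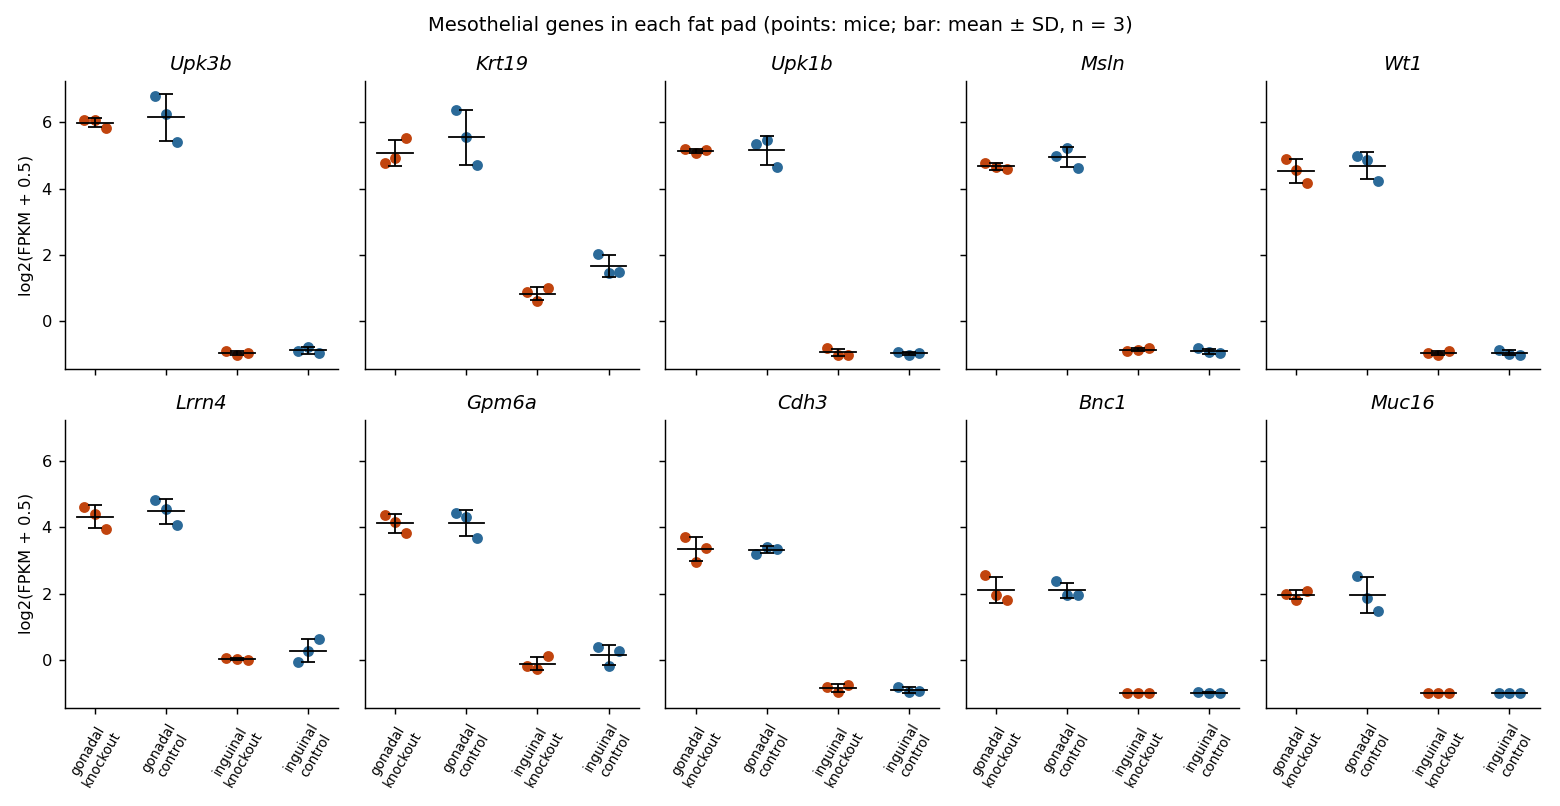
Level of each mesothelial gene as log2(FPKM + 0.5) in gonadal knockout, gonadal control, inguinal knockout and inguinal control pads; points are the 3 mice of a group, the long bar is their mean and the whiskers are ± 1 SD. All gonadal points lie above all inguinal points of the same gene, and Krt19, Lrrn4 and Gpm6a lie above the inguinal floor that the other 7 genes share.

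Promoter sequence was at hand for 5 of the 10 genes, in RefSeq windows of assembly GRCm38.p6: Upk3b, Lrrn4, Bnc1, Muc16 and Gpm6a, the last with 2 starts. The 250 bases upstream of the start were searched on both strands for GGAATG, the core that TEAD factors bind, and for GTGGGNG, the core that WT1 and EGR zinc finger proteins bind; these factors act in mesothelium. All 5 genes were higher in gonadal fat, Muc16 included, whose window holds neither core. The promoters of Upk3b, Lrrn4 and Bnc1 are shown because each holds at least 1 such core, with the cores in capitals and the last base next to the start. They lie at chr5:136038246-136038495 on the plus strand, chr2:132880863-132881112 on the minus strand and chr7:81992300-81992549 on the minus strand.
Upk3b: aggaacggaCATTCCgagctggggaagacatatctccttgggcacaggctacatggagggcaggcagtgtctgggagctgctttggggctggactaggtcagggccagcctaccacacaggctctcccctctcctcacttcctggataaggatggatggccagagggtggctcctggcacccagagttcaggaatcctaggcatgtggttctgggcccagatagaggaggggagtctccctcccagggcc
Lrrn4: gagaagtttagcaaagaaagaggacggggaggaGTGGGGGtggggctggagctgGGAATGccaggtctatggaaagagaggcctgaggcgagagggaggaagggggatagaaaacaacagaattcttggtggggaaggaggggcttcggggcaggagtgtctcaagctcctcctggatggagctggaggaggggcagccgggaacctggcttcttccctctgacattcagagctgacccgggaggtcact
Bnc1: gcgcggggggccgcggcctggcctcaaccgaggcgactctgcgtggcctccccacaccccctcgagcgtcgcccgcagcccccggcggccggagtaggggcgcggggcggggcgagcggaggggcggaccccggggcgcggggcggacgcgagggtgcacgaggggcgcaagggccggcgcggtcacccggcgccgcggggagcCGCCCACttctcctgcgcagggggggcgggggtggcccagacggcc

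Upk3b held GGAATG on the reverse strand, 241 bases before the start. Lrrn4 held both cores close together, GTGGGNG 217 and GGAATG 196 bases before the start. Bnc1 held GTGGGNG on the reverse strand, 46 bases before the start, and no GGAATG. Of the 6 windows of the 5 genes, 3 held GGAATG, which 12.6% of all 32851 promoter windows of this length hold, and 2 held GTGGGNG, which 28.1% hold. The third window with GGAATG belonged to the Gpm6a start that lies 175294 bases upstream of the listed gene, while the window at the listed Gpm6a start held none. The promoters also differed in base composition. Bnc1 had 83.6% G and C, a share that 0.320% of all windows reach against a median of 52.4%, and it was the only one of the 6 with GGGCGG, the core of Sp and KLF factors. The window at the listed Gpm6a start had 33.6% G and C. A match describes the letters of the window and is not a binding site.

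Levels of the 10 genes in gonadal fat, per length and over 6 pads, ran from 69.3 ± 22.8 FPKM for Upk3b to 3.50 ± 0.999 for Muc16 (SD). Krt19 followed Upk3b at 42.8 ± 21.4 FPKM, then Upk1b at 35.3 ± 6.49, Msln at 27.8 ± 5.23, Wt1 at 24.6 ± 5.81, Lrrn4 at 20.98 ± 4.80, Gpm6a at 17.3 ± 3.53, Cdh3 at 9.69 ± 1.73 and Bnc1 at 3.87 ± 0.925. Upk3b was above Krt19, Upk1b above Msln, Gpm6a above Cdh3, and Cdh3 above Bnc1 in 6 of 6 pads, each by more than the larger SD. Wt1 was above Lrrn4 and Lrrn4 above Gpm6a in 6 of 6 pads too, though by less than the larger SD. The neighbours Krt19 and Upk1b, Msln and Wt1, and Bnc1 and Muc16 kept their order in 4 of 6 pads and did not differ beyond their spread.

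In gonadal fat, the FoxO1 knockout was compared with control for all 10 genes, and none passed the test. Upk3b averaged 63.2 ± 5.89 FPKM in knockout pads and 75.5 ± 33.9 in control pads, Msln 24.9 ± 1.68 and 30.7 ± 6.36, Wt1 23.3 ± 5.83 and 25.9 ± 6.72, and Krt19 34.1 ± 10.1 and 51.4 ± 28.7 (SD, n = 3 each). The groups overlapped for 10 of 10 genes, where 14.3% of the 14851 genes tested did not overlap. Percent called over all genes was 0 with limma, with 1291 genes, or 8.69%, at an unadjusted p under 0.05; edgeR called 0 and DESeq2 called 281. None of the 10 mesothelial genes reached an unadjusted p of 0.05. The authors' deposited table of gonadal changes lists 1808 genes and holds none of the 10.

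The estimates show what the 3 mice per group could resolve. Krt19 had a knockout minus control difference of -0.47 on the log2 scale (95% interval -1.55 to 0.61, limma adjusted p = 0.830), and Msln one of -0.28 (-0.67 to 0.11, adjusted p = 0.699). Lrrn4 stood at -0.16 (-0.77 to 0.45), Upk3b at -0.15 (-0.99 to 0.69) and Wt1 at -0.15 (-0.79 to 0.49). Upk1b, Gpm6a, Muc16, Bnc1 and Cdh3 had estimates between -0.01 and 0.02. The median of the 10 estimates was -0.08, against -0.02 for all genes. Of the 10, 7 estimates were below 0 and 3 above, while 55.8% of all genes were below 0. The intervals leave room for a difference of up to 0.69 upward, for Upk3b, and 1.55 downward, for Krt19. With the 3 pads that held epididymal transcripts left out, which leaves knockout mice M5 and M9 against control mouse M7, Msln stood at -0.52, Krt19 at -0.70, Upk1b at -0.32 and Bnc1 at 0.30, and none was called. The single control mouse is then assumed to vary like the others.

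**Figure D2:**
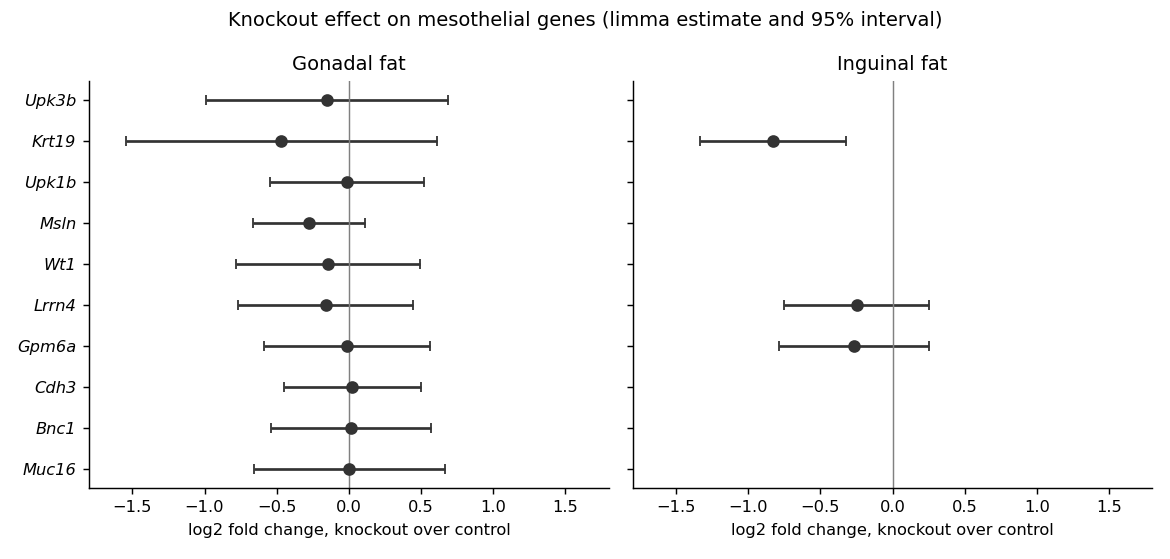
Knockout minus control difference of each mesothelial gene on log2(FPKM + 0.5) in gonadal fat (left) and in inguinal fat (right), as limma estimates with 95% intervals from 3 mice per group. Every gonadal interval spans 0; in inguinal fat only 3 genes passed the filter of 0.5 FPKM, and the Krt19 interval runs from -1.34 to -0.32.

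In inguinal fat, Krt19 was lower in all 3 knockout mice than in all 3 control mice, at 47.6% of the control mean. With the mouse as the unit, this difference did not pass the adjusted threshold with limma or edgeR, but passed it with DESeq2. Krt19 averaged 1.30 ± 0.248 FPKM in knockout pads and 2.73 ± 0.767 in control pads (SD, n = 3 each). The difference was -0.83 (SE 0.21, 95% interval -1.34 to -0.32, limma unadjusted p = 0.00707, adjusted p = 0.183). An exact two-sided permutation test gave p = 0.1, the smallest that 3 mice against 3 can give. Counting the 6 libraries of a group as replicates gave an adjusted p of 0.00633 with limma, and DESeq2 on reads summed per mouse gave 0.0210. edgeR on the same reads gave 0.203. The authors' deposited table of inguinal changes lists Krt19 among 2220 genes, with a log2 fold change of -0.82 and an adjusted p of 1.25e-04. It gives read counts for the 6 libraries of each group, and its columns do not say whether the mouse was the unit.

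Groups that do not overlap with the knockout lower were common in inguinal fat, at 17.3% of 13621 genes, and 70.6% of all genes had an estimate below 0. The median difference over all genes was -0.10. limma called 0.022% of the genes, which is 3 genes, and 14.9% had an unadjusted p under 0.05. Lrrn4 averaged 0.521 ± 0.0218 FPKM in knockout and 0.735 ± 0.295 in control pads, with a difference of -0.25 (adjusted p = 0.643). Gpm6a averaged 0.435 ± 0.129 FPKM in knockout and 0.633 ± 0.223 in control pads, with a difference of -0.27 (adjusted p = 0.625). The groups overlapped for both genes, and their 95% intervals spanned 0. The other 7 genes did not pass the filter on low values in inguinal fat.

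Whether the knockout effect differed between the depots was tested as an interaction over 12 pads. Only Krt19, Lrrn4 and Gpm6a had an inguinal level on which a knockout effect could be read, so the comparison rests on these 3 genes. For the other 7 the inguinal part of the interaction rests on 0 to 43 reads over the 12 inguinal libraries. Krt19 had an interaction estimate of 0.36 (95% interval -0.79 to 1.52), Gpm6a of 0.25 (-0.46 to 0.97) and Lrrn4 of 0.09 (-0.64 to 0.82), each with a limma adjusted p of 0.99975. Percent called over all 14577 genes was 0 with limma and 0 with edgeR, while DESeq2 called 11 genes; 725 genes, or 4.97%, had an unadjusted limma p under 0.05.

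The gonadal pads differed from each other in a way that most of the 10 genes shared and that did not follow genotype. Each level was divided by the gene's median over the 6 gonadal pads. The median of these ratios over the 10 genes was 1.08 in knockout M5, 0.938 in M9 and 0.906 in M12, against 1.24 in control M6, 1.08 in M7 and 0.699 in M10. Control M6 held the highest value for 6 of 10 genes and control M10 the lowest for 5. Knockout M12 held the lowest for 4 more, so M10 and M12 together held the lowest value for 9 of 10 genes. These are the pads with the highest epididymal sums, 9174 FPKM in M12 and 3226 FPKM in M10, and FPKM is a share of all reads in a library. In M6, where Crisp1 alone made up nearly all of the 444 FPKM, 9 of the 10 genes were above their median. The part of the epididymal transcripts in the spread of the mesothelial genes was not tested.

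Wt1, Lrrn4 and Gpm6a shared a pad pattern. Each was highest in M6 and above its median in M5, M6 and M7, with relative levels in M12 and M10 of 0.68 and 0.71 for Wt1, 0.68 and 0.76 for Lrrn4, and 0.74 and 0.68 for Gpm6a. Cdh3 went its own way: its highest pad was knockout M5, at 1.28 times its median, its lowest was knockout M9, at 0.74, and M6 was at 0.89. Over the 6 gonadal pads, the correlation of each gene with the mean of all 10 (z-scores of log2 values, the gene itself included) was 0.936 for Wt1, 0.929 for Gpm6a, 0.915 for Upk3b and 0.904 for Lrrn4, but 0.651 for Krt19 and 0.202 for Cdh3. These values describe 6 pads that differ in library total and in epididymal transcripts, and all genes of a pad share its libraries. The 2 libraries of a gonadal pad differed by at most 1.04-fold for Lrrn4 and at most 1.43-fold for Muc16, the lowest and highest of the 10 genes, against 1.57-fold for Msln and 3.22-fold for Krt19 between pads.

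**Figure D3:**
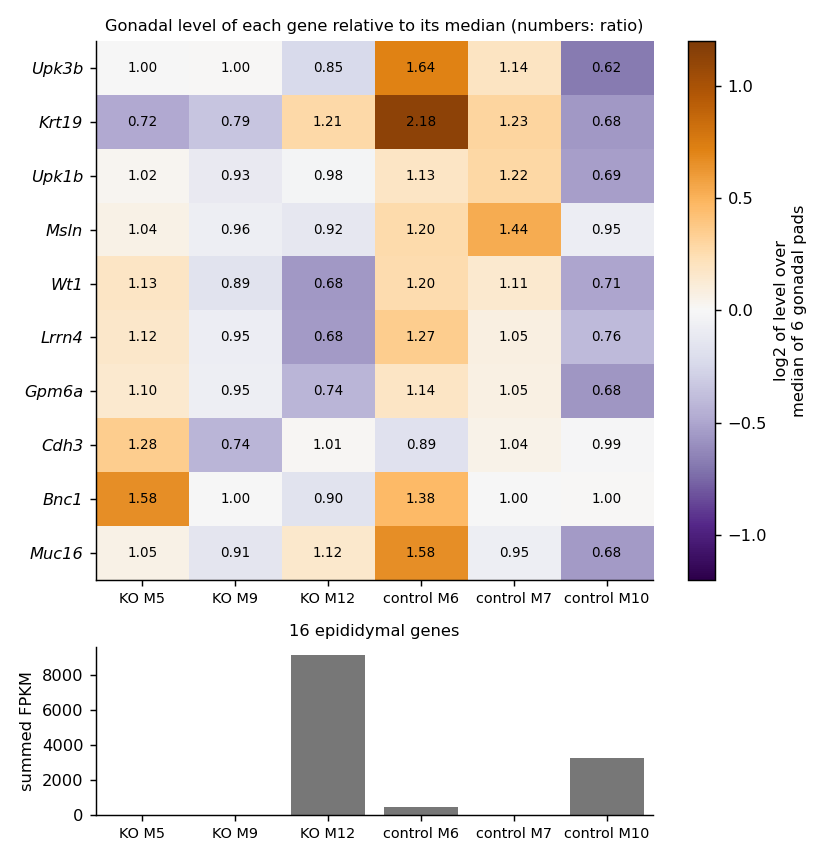
Upper panel, level of each mesothelial gene (rows) in each gonadal pad (columns; knockout M5, M9, M12, then control M6, M7, M10) divided by its median over the 6 pads, with colour on a log2 scale and the ratio printed. Lower panel, summed FPKM of 16 epididymal genes in the same pads; M12 and M10, with 9174 and 3226 FPKM, hold the lowest value for 9 of the 10 genes.

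Krt19 was set beside the other keratins of simple epithelia and Epcam, an epithelial adhesion molecule that the epididymal lining also expresses. Krt8 had 15.6, 12.4 and 54.7 FPKM in knockout gonadal pads M5, M9 and M12, and 38.2, 20.1 and 40.2 FPKM in control pads M6, M7 and M10. Krt18 had 4.46, 5.69 and 55.9 FPKM in knockout pads and 18.8, 5.47 and 31.1 FPKM in control pads. Epcam had 0.803, 3.12 and 32.1 FPKM in knockout pads and 15.4, 1.25 and 17.4 FPKM in control pads. Krt8, Krt18 and Epcam were each highest in M12 and each higher in M12, M6 and M10, the pads with epididymal transcripts, than in M5, M9 and M7. Krt7, another keratin of mesothelium, was not, with 6.88, 5.57 and 7.30 FPKM in knockout pads and 6.71, 10.5 and 6.63 FPKM in control pads. Krt19 sat between these patterns. It was highest in M6, alike in M12 and M7, whose epididymal sums were 9174 and 1.45 FPKM, and lowest in M10. How much of the Krt19 in M6 and M12 came from epididymal cells was not tested. In the 3 pads without epididymal transcripts, Krt19 had 27.0 and 29.6 FPKM in knockout M5 and M9 and 46.4 FPKM in control M7. In these pads it was above Krt7, Krt8 and Krt18, as it was in M6 at 82.3 FPKM. In M12 and M10, at 45.7 and 25.6 FPKM, Krt19 was below Krt8 and Krt18.

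**Figure D4:**
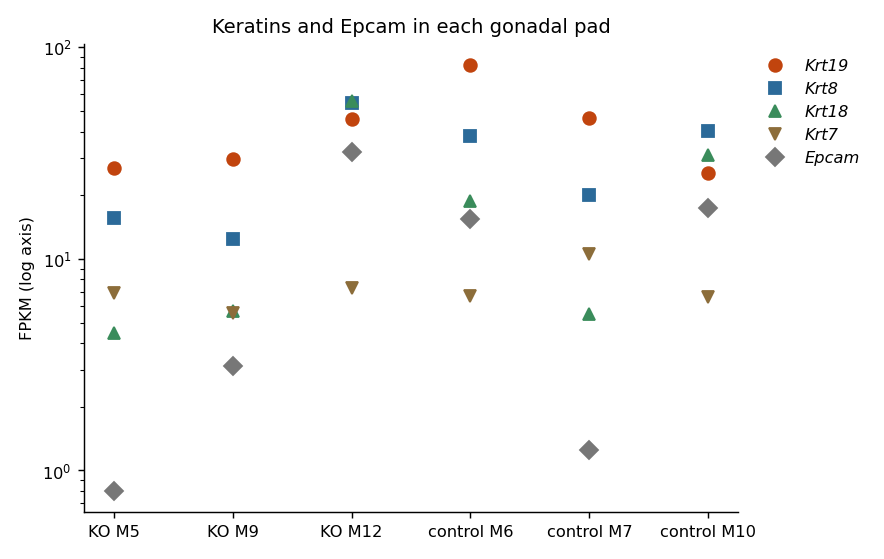
FPKM on a log axis of Krt19, Krt8, Krt18, Krt7 and Epcam in the 6 gonadal pads, knockout M5, M9 and M12 on the left and control M6, M7 and M10 on the right; each point is the mean of the pad's 2 libraries. Krt8, Krt18 and Epcam are high in M12, M6 and M10, while Krt7 varies less and Krt19 is lowest in M10.

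A wider list of 20 further genes reported in mesothelium was described in the same way. Of these, 18 passed the filter, 5 of them only through gonadal fat. Of the 13 that averaged 0.5 FPKM or more in both depots, 9 were called higher and 1 lower in gonadal fat, where 44.5% of all genes were called higher and 19.5% lower. Over the 18, 14 were higher, 1 lower and 3 not called, with a median difference of 3.16 against 0.23 for all genes. Slpi, a secreted protease inhibitor, was the most abundant. It had 431, 315 and 252 FPKM in knockout gonadal pads and 217, 413 and 324 FPKM in control gonadal pads, with at most 2.20 FPKM in inguinal pads and a difference of 7.78 (SE 0.41). Nkain4, whose product interacts with the sodium pump, differed by 6.35, Rspo1, an activator of Wnt signalling, by 4.59, and Aldh1a2, an enzyme of retinoic acid synthesis, by 3.48. Calretinin (Calb2), a marker of human mesothelium, did not exceed 0.170 FPKM in any pad, and Upk3bl did not exceed 0.430 FPKM. Mpzl2 was lower in gonadal fat (-1.37, SE 0.34), while Cldn1, Cldn15 and Podxl were not called. With edgeR and with DESeq2, 12 of the 18 were called higher; Bcam and Tbx18 lost their call. In the knockout comparison of gonadal fat, limma called 0 of 18 of these genes, 16 estimates were below 0 and 2 above, where 55.8% of all genes were below 0, and the median was -0.15 against -0.02 for all genes.

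Paralogs of the 10 genes were called higher at a share near that of all genes. Of 15 paralogs, 9 passed the filter, 5 were higher in gonadal fat, 2 lower and 2 not called, with a median of 0.72, where 44.5% of all genes were called higher and 19.5% lower. Lrrn2 differed by 1.96 and N-cadherin (Cdh2) by 1.67. E-cadherin (Cdh1) differed by 1.82, but was high only in the pads with epididymal transcripts, at 9.96 FPKM in knockout M12, 4.92 in control M6 and 5.65 in control M10, against 0.325 and 0.673 FPKM in knockout M5 and M9 and 0.513 FPKM in control M7. Mslnl and Muc4, relatives of Msln and of the mucins, did not exceed 0.0523 FPKM in any pad. Muc1 differed by 0.33 and lost its call with edgeR and DESeq2.

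Other cell types of the pads followed several directions, and their counts stand beside the 44.5% of all genes called higher and the 19.5% called lower. Of the 6 adipocyte genes, 6 were lower in gonadal fat, with a median of -1.30. Of 6 stromal progenitor genes, 5 were higher and 1 lower (median 1.13), and of 5 visceral stroma genes Nr2f1 was higher by 0.70. Tcf21 and Gata5 passed the filter only through gonadal fat, where they averaged 3.87 and 3.29 FPKM, against 0.0102 and 0.0016 FPKM in inguinal fat. Of 5 genes linked to Wt1, namely Wt1os, Podxl, Amhr2, Wtip and the mesothelial gene Bnc1, 4 were higher and Podxl was not called. Of these 4, 2 had passed only through gonadal fat. Among 13 genes of skin and mammary epithelium, 6 were tested and 2, Krt14 and Epcam, were called higher, 1 of them having a mean of at least 0.5 FPKM in both depots. Of 16 epididymal genes, 15 passed the filter only through gonadal fat. Among the 16, limma called 1, Crisp1, which was high in M12, M6 and M10. The 15 genes other than Crisp1 were together high in M12 and M10. With edgeR, 3 of the 16 were tested and 2 called. The 4 urothelial genes summed to at most 9.97 FPKM, of which Upk1a made up 9.88 FPKM at most.

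**Figure D5:**
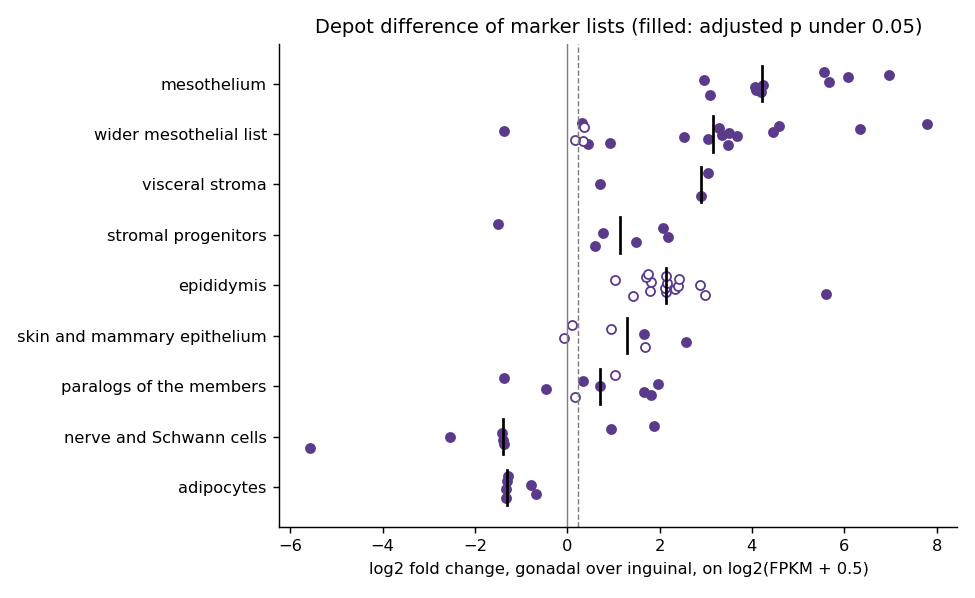
Gonadal minus inguinal difference of each tested gene of 9 marker lists, on log2(FPKM + 0.5); filled points have a limma adjusted p under 0.05, short black lines are list medians, and the dashed line is the median of all genes, 0.23. The mesothelial genes lie between 2.96 and 6.97, and adipocyte genes all lie below 0.

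The genes whose pattern was most like that of the 10 were ranked by Pearson's r with the members' mean z-score, among genes with a mean of at least 1 FPKM. Over the 12 pads, where the depots set most of r, the first 8 of 13053 genes were Myrf, Gata5, Col4a6, Crb2, Nkain4, Mgat3, Rspo1 and Col6a5, with r from 0.999 to 0.997. Myrf, a membrane-bound transcription factor, averaged 29.0 FPKM in gonadal and 0.0769 FPKM in inguinal fat, close to the level of Msln. Col6a5 averaged 29.3 FPKM in gonadal and 0.108 FPKM in inguinal fat. Over the 6 gonadal pads alone, the first 8 of 13348 genes were Slc6a4, the serotonin transporter, followed by Rbm43, Ttll12, Ust, Dnpep, Bsg, Suv39h1 and Slc35a1, with r from 0.988 to 0.976. None of the second 8 is among the first 8. With 6 pads and 13348 genes, an r of this size is a description and not a test.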

How the data were processed

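Per the labels' protocols, total RNA was prepared with Qiagen RNeasy columns and turned into libraries with NEBNext Ultra reagents. CASAVA, STAR and build mm10 appear in the submitters' processing notes. Not given in the sources used here are the counting step and its use of strand, and antisense neighbours may share reads. The deposited whole-series table gives FPKM, per the file headers. The authors' deposited comparison tables, which hold only genes listed as changed, give read counts, group means as a scaled signal, log2 fold changes and p-values. The 24 FPKM columns of those tables were not used.

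Libraries were assigned by name: z was read as knockout, f as floxed control, e as the epididymal (gonadal) pad and s as the subcutaneous (inguinal) pad. This reading was inferred, and the labels' replicate numbers are not in the names. Libraries of 1 pad correlated across genes at r = 0.991 to 0.996, and those of other mice of a group at 0.897 to 0.985. The mouse was the replicate, and what separates the libraries of a pad is not stated. Gonadal and inguinal pads were paired by animal number. Their deviations from the group means correlated at -0.0954 to 0.136 within a mouse.

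Genes with a mean of at least 0.5 FPKM over the pads of a fit were tested, two-sided, with limma 3.58.1 (trend) in R 4.3.3 on log2(FPKM + 0.5), with adjustment over all genes tested. This scale understates the change of low genes. Depot differences and the interaction used 12 pads in 4 groups, and knockout effects used the 6 pads of a depot. Whole reads were recovered from FPKM, gene length and library totals for 100% of values (tolerance 0.001), and edgeR 4.0.16 and DESeq2 1.42.0 were run on them. The limma step was tested on simulated data. Other alternatives were pseudocounts of 0.1 and 1, other filters, libraries as replicates, mice left out and the mouse as a block; leaving out pads with epididymal transcripts was chosen after seeing the data.

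The 10 genes, the lists and the tests were chosen with earlier results of these data known. Named besides the 10 genes are genes of the lists, paralogs, the 8 genes most like the 10 in each of 2 rankings, Foxo1 and 4833418N17Rik. Epcam, Krt7, Krt8, Krt18 and the list genes given with values were picked after their values were seen. Promoters came from RefSeq (GRCm38.p6). Single values of some list genes are not reported here.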

Additional observations from a re-analysis of the deposited data

Results flagged for a closer look

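Single libraries stood apart from the other 5 of their group in 5 of 38 gene and group combinations with varying levels. A chance rate of about 1 in 20 would hold for independent libraries. The 2 libraries of a pad are not independent and low read counts take few values, so 5 of 38 cannot be judged against that rate. The measure is the gap to the nearest library divided by the range of the group. Muc16 in gonadal knockout fat had a ratio of 0.668, with 1 library of M9 at 2.50 FPKM below the others. Cdh3 in gonadal control fat had a ratio of 0.643, with 1 library at 7.91 FPKM. The remaining flags rest on a few reads in inguinal fat: Cdh3 in controls (ratio 0.803, library at 0.114 FPKM), Wt1 in knockouts (ratio 0.735, library at 0.0665 FPKM) and Bnc1 in knockouts (ratio 1, the single library above 0, at 0.0110 FPKM).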

How the results depend on the processing

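Over both genotypes, the depot difference of the 10 genes kept its direction and call in 148 of 148 combinations of gene and alternative. The same held in 148 of 148 within knockout mice and 148 of 148 within control mice. Of the 10 genes, 7 passed the filter only through gonadal fat and so had to differ, and the alternatives reuse the same pads. With the mouse as a replicate block, 9427 genes were called between depots, against 9323 without it, and the block changed no call of the 10 genes. Leaving out a mouse gave 4773 (M5 left out) to 7689 genes in knockout mice and 4734 (M7) to 7003 in control mice.
The knockout effect was less stable as a count of all genes. With libraries as replicates, 1125 genes were called in gonadal fat, 2189 in inguinal fat and 265 as an interaction; DESeq2 called 281, 585 and 11. A 12-pad fit called 106 inguinal genes. Leaving out a mouse gave 0 to 1 gonadal and 0 to 78 inguinal genes (78 without M7). Krt19 was the 1 gene of the 10 called in inguinal fat with libraries as replicates, and also the 1 called with DESeq2. Signs near 0 turned. In gonadal fat Muc16 was -0.0031 with a pseudocount of 1, -0.046 with edgeR and -0.051 with DESeq2, and Cdh3 was -0.081 without the pads that held epididymal transcripts. Interactions of genes near 0 in inguinal fat also rest on few or no inguinal reads. The Upk3b interaction turned to 0.11 with a pseudocount of 0.1, 0.72 with edgeR and 0.79 with DESeq2. Upk3b had 18 inguinal reads, and its gonadal knockout effect did not exceed 0.17 under any alternative. The Wt1 interaction turned to 0.018 with edgeR and 0.027 with DESeq2. The Muc16 interaction turned to -0.0031 with a pseudocount of 1, -0.052 with edgeR and -0.027 with DESeq2. Bnc1, with 5 inguinal reads, had an interaction of up to 1.95 among the alternatives. With 1 mouse left out, gonadal knockout effects ran from -0.53 to 0.17 for Upk3b, -0.27 to 0.14 for Upk1b, -0.36 to 0.031 for Lrrn4, -0.21 to 0.16 for Bnc1, -0.38 to 0.037 for Wt1, -0.24 to 0.29 for Muc16, -0.24 to 0.14 for Gpm6a and -0.15 to 0.22 for Cdh3. Interactions ran from -0.41 to 0.24 for Upk3b, -0.29 to 0.14 for Upk1b, -0.29 to 0.42 for Lrrn4, -0.19 to 0.18 for Bnc1, -0.34 to 0.073 for Wt1, -0.24 to 0.29 for Muc16, -0.020 to 0.51 for Gpm6a and -0.20 to 0.10 for Cdh3. None of these was called, and the cause was not tested. Depth limits the inguinal levels of 7 genes, which rest on 0 to 43 reads.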
